A study of Mus musculus with 8 samples.

Results

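Peritoneal macrophages express surface proteins that decide how a T cell responds to the antigen it is shown, and the transcripts of 9 of these, Cd80, Cd86, Icosl, Cd274, Pdcd1lg2, Tnfsf9, Tnfsf4, Cd40 and Cd83, are described here. They were chosen by name, as array rows paired with that single gene symbol, and make up 9 of the 19938 genes measured. The choice was made with earlier results of these data known, so their counts beside the shares of all genes are a description only. The cells were wild-type C57/Bl6 mouse peritoneal macrophages, taken by lavage, pooled from 10 mice, cultured overnight in RPMI with 5% FCS and then incubated for 24 h or 6 h, either with 1 µg/ml of recombinant HRG or with no addition (basal). HRG is histidine-rich glycoprotein, which circulates in plasma. The 4 groups, HRG at 24 h, basal at 24 h, HRG at 6 h and basal at 6 h, held 2 samples each, every sample on its own Affymetrix array. All samples come from 1 pool of lavage cells and no source used here says how far the replicates were handled apart, so the p-values measure only the spread between these arrays, which may be technical.

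Levels are log2 expression values as the authors deposited them, and differences are HRG minus basal or 24 h minus 6 h on the same scale, with the standard error of the fit and n = 2 arrays per group. "Rose" and "fell" mark genes with an adjusted p under 0.05 in limma, with Benjamini-Hochberg adjustment over all 19938 genes, and n = 2 arrays per group limits the precision of every value. A brighter row is not a more abundant transcript, so levels are compared between samples and not between genes. Replicate arrays correlated at 0.996 to 0.998 across rows, which are not independent, and the lower quartiles of the 8 arrays lay between 5.85 and 6.00. All 10 macrophage markers examined, among them Adgre1, Csf1r, Lyz2 and Cd68, lay above these quartiles on average (13.48, 13.14, 13.87 and 13.23). Of the 9 ligand and receptor genes, 8 lay above each array's own lower quartile on all 8 arrays, with Pdcd1lg2 nearest to it (6.57 on average). Tnfsf4 (6.14 on average) lay below it on 4 of 8 arrays, namely both HRG_24h arrays, HRG_6h replicate 2 and Basal_6h replicate 2.

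A T cell needs, besides its antigen, a signal through CD28, which the B7 proteins CD80 and CD86 provide, while the same proteins engage the inhibitory receptor CTLA-4. ICOS ligand, PD-L1 (Cd274) and PD-L2 (Pdcd1lg2) belong to the same family. The first binds the costimulatory receptor ICOS and the PD-1 ligands restrain activated T cells. 4-1BB ligand (Tnfsf9) and OX40 ligand (Tnfsf4) are costimulatory members of the tumour necrosis factor family, CD40 is the receptor through which helper T cells activate antigen-presenting cells, and CD83 marks their maturation. In macrophages and dendritic cells, many of these genes are induced by Toll-like receptor ligands, interferon-gamma and NF-kappaB.

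Cd83 and Tnfsf9 changed with HRG in opposite directions at 24 h and at 6 h. At 24 h, Cd83, Cd86 and Tnfsf9 rose 1.40-fold to 1.45-fold over basal cells. Tnfsf4 fell, with no fold given because both HRG arrays lay below their lower quartile there. At 6 h, Cd40, Cd83, Tnfsf9 and Cd80 fell 1.42-fold to 1.64-fold against basal cells and none rose (0 at an unadjusted p under 0.05). Cd274 differed little at either time, at -0.02 ± 0.09 at 24 h and 0.01 ± 0.09 at 6 h. The median difference of the 9 genes was 0.14 at 24 h and -0.37 at 6 h, against -0.02 and 0.02 over all genes.

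Of the 9 genes, 3 rose and 1 fell at 24 h, where 3.48% of all genes were called (2.43% rose and 1.05% fell). At 6 h, 4 of 9 fell, where 1.25% of all genes were called (0.431% rose and 0.818% fell). Many of these calls were lost when a single array was left out, while every called difference kept its sign. The calls at 24 h were lost without either HRG_24h array or Basal_24h replicate 2, and that of Tnfsf9 also without Basal_24h replicate 1. Those at 6 h were lost without HRG_6h replicate 2 or Basal_6h replicate 1. Without HRG_6h replicate 1 only Cd40 kept its call, and without either HRG_24h array, which lends its spread to the fit, Cd80 and Cd40 lost theirs. Each of these fits leaves a group with a single array, and in each the calls over all genes were fewer as well. The differences at 24 h ran between 0.53 and 0.54 for Cd83, 0.47 and 0.57 for Cd86, 0.45 and 0.52 for Tnfsf9, and -1.92 and -0.89 for Tnfsf4. Against a minimum fold of 1.2, 0 of the 9 genes were called at either time (4 at an unadjusted p under 0.05). Over all 19938 genes, this setting called 179 at 24 h and 25 at 6 h.

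**Figure D1:**
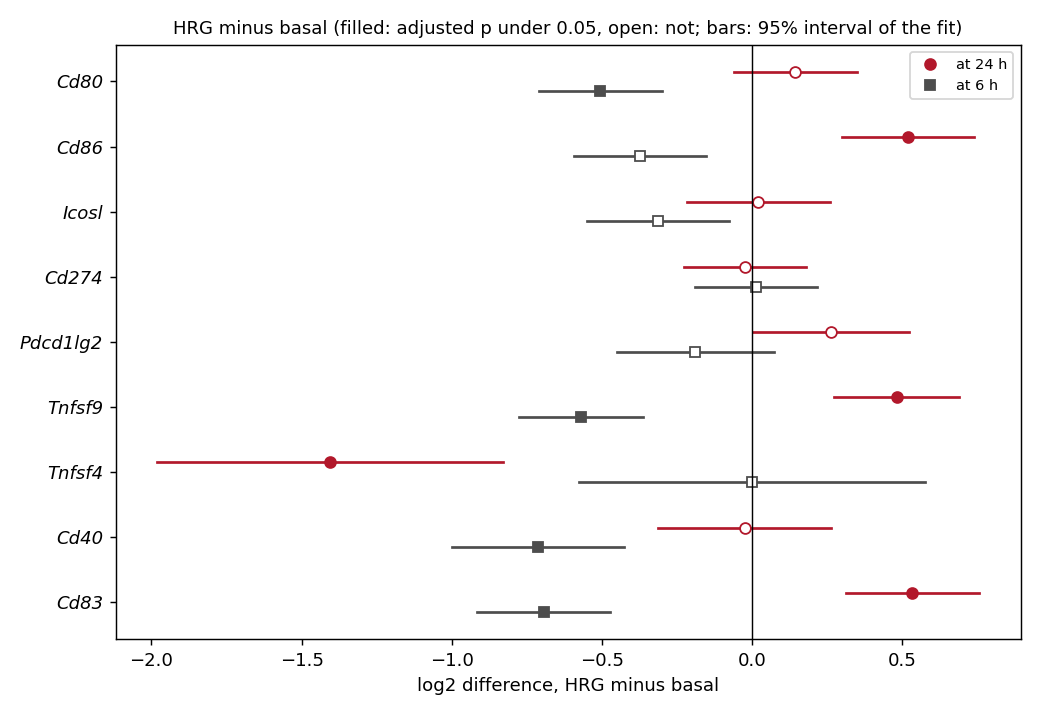
Log2 difference of HRG minus basal (horizontal axis) for each of the 9 genes at 24 h (red circles) and at 6 h (grey squares), with the 95% interval of the limma fit as a bar and filled symbols for an adjusted p under 0.05. Cd80, Cd86, Icosl, Pdcd1lg2, Tnfsf9 and Cd83 have 24 h values above 0 and 6 h values below 0, and Tnfsf4, dim on both HRG arrays at 24 h, is at -1.41 there.

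Markers of other peritoneal cells moved beside these genes. Of all genes, 2.43% rose and 1.05% fell with HRG at 24 h, and 0.431% rose and 0.818% fell at 6 h. At 24 h with HRG, 5 of 9 B cell markers rose and 0 fell (0 at an unadjusted p under 0.05), with a median of 0.49, led by the antigen receptor component Cd79a (0.98 ± 0.16), Ms4a1 (0.80 ± 0.15), Ebf1 (0.67 ± 0.17) and Fcer2a (0.64 ± 0.15). Of 8 mast cell markers, 5 rose at 24 h, among them the protease Cpa3 (0.97 ± 0.18) and Gata2 (0.81 ± 0.11). Of 10 dendritic cell markers, the integrin Itgax (1.00 ± 0.11) and the chemokine Ccl22 (0.73 ± 0.13) rose, with a list median of 0.365. While 7 of the 10 lay above 0, Zbtb46 (-0.10 ± 0.12), Xcr1 (-0.12 ± 0.17) and Clec9a (-0.09 ± 0.13) lay below it. No T and NK cell marker of 9 passed at 24 h in limma (2 at an unadjusted p under 0.05), and 2 of 10 macrophage markers rose, Fcgr1 (1.13 ± 0.16) and Mertk (0.51 ± 0.10). At 6 h, 1 of 9 B cell markers fell (Cd79b, -0.59 ± 0.12; list median -0.36), as did 1 of 9 T and NK cell markers (Cd3g, -1.11 ± 0.21; median -0.28) and 2 of 10 dendritic cell markers (Dpp4, -0.58 ± 0.11, and Ccr7, -0.54 ± 0.11; median -0.16), while no mast cell marker passed in limma (0 at an unadjusted p under 0.05; median -0.11). Of the macrophage markers at 6 h, 1 of 10 rose, Mertk (0.81 ± 0.10), whose product helps take up dying cells.

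The mean level of the 9 B cell markers was 8.35 to 8.62 on the HRG arrays at 24 h, against 7.73 to 8.09 on the basal arrays at 24 h, and 8.32 on both HRG arrays at 6 h, against 8.66 to 8.71 on the basal arrays at 6 h. For the dendritic cell markers it was 7.77 to 8.10 with HRG and 7.47 to 7.55 in basal cells at 24 h, and 7.59 on both HRG arrays and 7.68 to 7.80 on the basal arrays at 6 h. Cd209a of this list was at 9.18 in HRG_24h replicate 1 and 6.98 in replicate 2, which widens the range there. The mast cell markers averaged 9.30 to 9.60 with HRG and 8.75 to 8.97 in basal cells at 24 h, and 9.23 to 9.35 with HRG and 9.35 to 9.47 in basal cells at 6 h. The T and NK cell markers averaged 7.41 to 7.47 with HRG and 7.08 to 7.45 in basal cells at 24 h, and 6.97 to 7.11 with HRG and 7.31 to 7.61 in basal cells at 6 h. The macrophage markers averaged 12.20 to 12.23 with HRG and 11.91 to 11.94 in basal cells at 24 h, and 11.97 to 12.04 with HRG and 11.85 to 11.90 in basal cells at 6 h. An array gives no true 0, and 1 T and NK cell, 1 dendritic cell, 1 mast cell, 0 B cell and 0 macrophage markers had a mean below the lower quartile. B cells and dendritic cells are also known to express many of the 9 genes. The part of these cells in the differences was not tested, and in such bulk samples fewer cells of a type and less RNA per cell cannot be told apart.

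**Figure D2:**
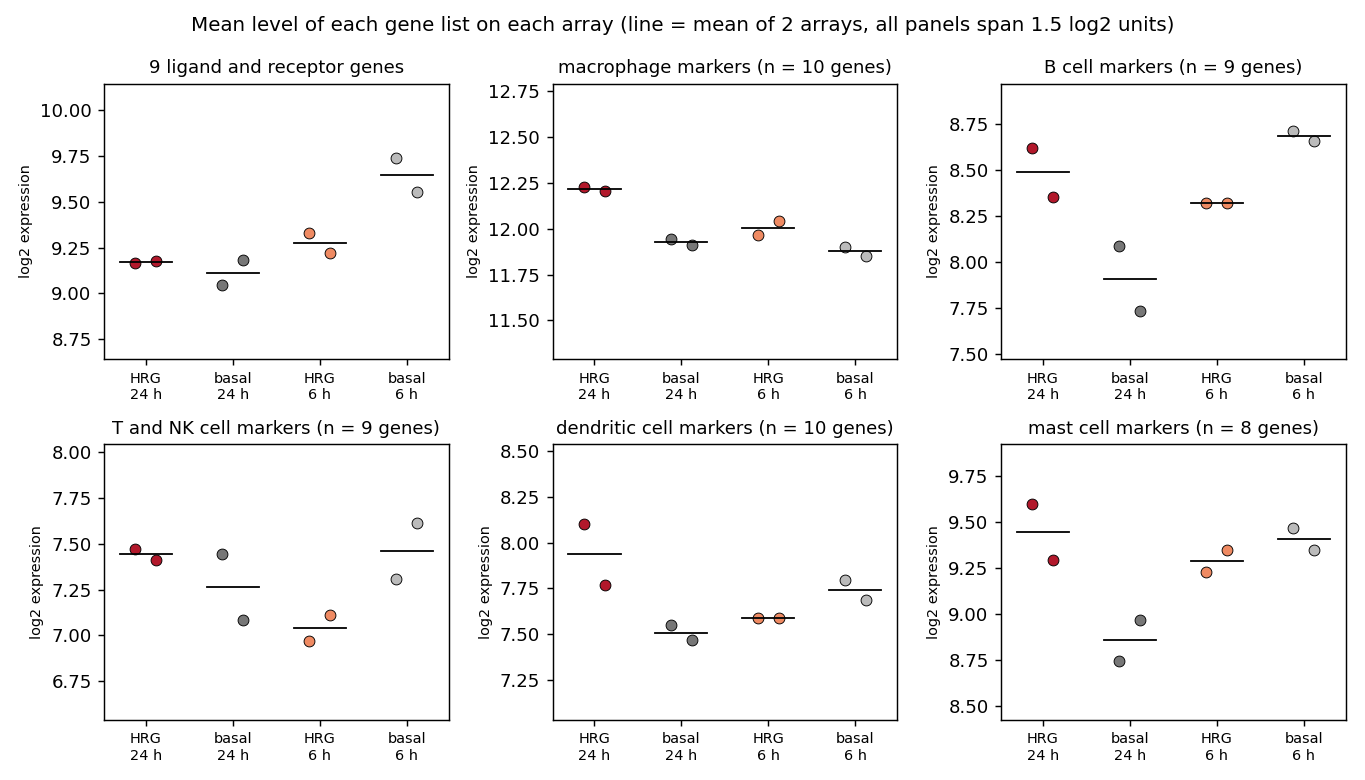
Mean log2 expression of the 9 ligand and receptor genes and of 5 lists of cell type markers on each array, by group (points, 2 arrays per group; lines, their mean; every panel spans the same range of log2 units). The B cell list is at 8.35 to 8.62 with HRG and 7.73 to 8.09 in basal cells at 24 h, and lower with HRG (8.32) than in basal cells (8.66 to 8.71) at 6 h.

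The promoter windows of 4 of the 9 genes were at hand from RefSeq (GRCm38.p6), each running 5′ to 3′ for 300 bases, 250 before and 50 after the annotated start. They are shown because no window was at hand for the other members, and they were not picked by expression. The PD-1 ligands Cd274 and Pdcd1lg2, which stand on the same chromosome, both fell with time in basal cells. Capitals mark matches on either strand to a loose NF-kappaB-like pattern, GGG and CC with any 5 bases between them, and to TGANTCA, the AP-1 pattern.
Cd80 (chr16:38458683-38458982, + strand): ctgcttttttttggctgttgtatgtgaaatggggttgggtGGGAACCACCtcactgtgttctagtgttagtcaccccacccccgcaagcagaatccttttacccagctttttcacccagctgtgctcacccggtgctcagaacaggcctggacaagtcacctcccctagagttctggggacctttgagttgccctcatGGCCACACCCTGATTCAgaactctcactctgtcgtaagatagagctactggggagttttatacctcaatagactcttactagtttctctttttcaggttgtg
Icosl (chr10:78069118-78069417, + strand): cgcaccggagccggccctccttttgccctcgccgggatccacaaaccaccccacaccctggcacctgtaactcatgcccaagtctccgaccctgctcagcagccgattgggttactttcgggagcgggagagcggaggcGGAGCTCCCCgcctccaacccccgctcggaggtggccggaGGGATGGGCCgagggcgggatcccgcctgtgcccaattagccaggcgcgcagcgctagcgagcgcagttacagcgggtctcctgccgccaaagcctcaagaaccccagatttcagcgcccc
Cd274 (chr19:29367188-29367487, + strand): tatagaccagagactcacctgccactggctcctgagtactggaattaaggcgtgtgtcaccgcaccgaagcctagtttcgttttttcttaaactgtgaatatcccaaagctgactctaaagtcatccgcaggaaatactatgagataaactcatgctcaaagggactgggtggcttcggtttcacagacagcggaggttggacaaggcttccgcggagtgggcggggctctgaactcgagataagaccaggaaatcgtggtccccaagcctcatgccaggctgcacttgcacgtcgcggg
Pdcd1lg2 (chr19:29410669-29410968, + strand): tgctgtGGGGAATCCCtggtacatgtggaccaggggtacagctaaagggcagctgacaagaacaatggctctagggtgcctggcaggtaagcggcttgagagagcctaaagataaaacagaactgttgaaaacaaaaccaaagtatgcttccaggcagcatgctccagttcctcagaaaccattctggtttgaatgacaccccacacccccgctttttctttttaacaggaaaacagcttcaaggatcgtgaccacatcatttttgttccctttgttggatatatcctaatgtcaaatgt
The NF-kappaB-like pattern matched at 2 places in the Cd80 window, at bases 41 to 50 and 199 to 208 counted from the 5′ end, at 2 in the Icosl window and at 1 in the Pdcd1lg2 window, where it reads GGGGAATCCC at bases 7 to 16. The Cd274 window held none of the searched patterns. The pattern is present in 50.8% of the 32851 promoter windows of that length, and in 3 of these 4. TGANTCA matched once, in the Cd80 window at bases 209 to 215, directly after the NF-kappaB-like match, and is present in 7.81% of windows. The STAT-like TTCNNNGAA, the interferon regulatory factor pattern (GAAA, any 2 bases, GAAA) and the NRF2 pattern TGACNNNGC matched in 0 of the 4 windows, against 8.30%, 3.44% and 12.4% of all windows. A match is a run of letters and not a measured binding site, and no match says only that these letters are not in this window. The remaining members, Cd86, Tnfsf9, Tnfsf4, Cd40 and Cd83, are given by name only.

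Of the CD28 ligands, Cd80 passed at 6 h and Cd86 at 24 h. Cd80 was at 10.93 and 10.90 on the HRG arrays at 24 h, against 10.72 and 10.83 on the basal arrays, and at 10.76 and 10.74 on the HRG arrays at 6 h, against 11.32 and 11.20 on the basal arrays. Basal cells at 6 h were therefore the highest group, HRG at 24 h came next without overlap, and basal at 24 h and HRG at 6 h overlapped. Cd80 fell with HRG at 6 h by 0.51 ± 0.09 (1.42-fold lower, adjusted p = 0.027) and was at 0.14 ± 0.09 at 24 h (adjusted p = 0.65). Cd80 has another, dimmer row on the array, which gave -0.50 ± 0.11 at 6 h and -0.02 ± 0.11 at 24 h. When every row of the array was tested, the adjusted p of Cd80 at 6 h was 0.051 in the brighter row and 0.09 in the dimmer. Without single arrays the 6 h value ran between -0.56 and -0.45, and the call was lost without either HRG_6h array, either HRG_24h array or Basal_6h replicate 1 (adjusted p up to 0.23).

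Cd86 was at 10.33 and 10.43 with HRG at 24 h, against 9.91 and 9.82 in basal cells, and at 10.22 and 10.12 with HRG at 6 h, against 10.63 and 10.46 in basal cells. The groups did not overlap, and their order was basal at 6 h, HRG at 24 h, HRG at 6 h and basal at 24 h. Cd86 rose with HRG at 24 h by 0.52 ± 0.10 (1.43-fold, adjusted p = 0.013) and was at -0.37 ± 0.10 at 6 h (adjusted p = 0.13). The 24 h value ran between 0.47 and 0.57 without single arrays, and the call was lost without either HRG_24h array or Basal_24h replicate 2 (adjusted p up to 0.12).

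Icosl, whose product binds ICOS, was at 8.14 and 8.09 with HRG at 24 h, against 8.22 and 7.97 in basal cells, and at 8.15 and 8.10 with HRG at 6 h, against 8.53 and 8.36 in basal cells. Basal cells at 6 h stood above the other 3 groups, which overlapped one another in order of level. The difference was 0.02 ± 0.11 at 24 h (adjusted p = 0.98, 95% interval -0.22 to 0.26) and -0.31 ± 0.11 at 6 h (adjusted p = 0.27, 95% interval -0.55 to -0.08), so neither passed.

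The PD-1 ligands were set apart by time and not by a called HRG effect. Cd274, which encodes PD-L1, was at 12.38 and 12.26 with HRG at 24 h, against 12.38 and 12.31 in basal cells, and at 12.90 and 12.84 with HRG at 6 h, against 12.86 on both basal arrays. HRG and basal arrays overlapped at both times, and all 6 h arrays lay above all 24 h arrays. The 95% interval of the HRG difference ran between -0.23 and 0.18 at 24 h and between -0.19 and 0.22 at 6 h (adjusted p = 0.97 and 0.98). Pdcd1lg2, which encodes PD-L2, was at 6.39 and 6.41 with HRG at 24 h, against 6.09 and 6.19 in basal cells, and at 6.76 and 6.78 with HRG at 6 h, against 7.15 and 6.77 in basal cells. Its HRG and basal arrays did not overlap at 24 h (0.26 ± 0.12, adjusted p = 0.39) and overlapped at 6 h (-0.19 ± 0.12, adjusted p = 0.64), and neither difference passed. Pdcd1lg2 at 6 h rested on Basal_6h replicate 1, without which the difference was -0.0006.

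Tnfsf9, which encodes 4-1BB ligand, had the only level that was highest with HRG at 24 h and lowest with HRG at 6 h. It was at 9.40 and 9.37 with HRG at 24 h, against 8.87 and 8.94 in basal cells, and at 8.02 and 8.10 with HRG at 6 h, against 8.69 and 8.56 in basal cells. The groups did not overlap. Tnfsf9 rose with HRG at 24 h by 0.48 ± 0.09 (1.40-fold, adjusted p = 0.014) and fell at 6 h by 0.57 ± 0.09 (1.48-fold lower, adjusted p = 0.016). Without single arrays the values ran between 0.45 and 0.52 at 24 h and between -0.63 and -0.50 at 6 h. The call was lost without any of the 4 arrays compared at 24 h (adjusted p up to 0.14) and without either HRG_6h array or Basal_6h replicate 1 at 6 h (adjusted p up to 0.14).

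Tnfsf4, which encodes OX40 ligand, went the other way at 24 h and was the least precise member. It was at 5.37 and 5.54 with HRG at 24 h, against 6.34 and 7.38 in basal cells, and at 6.39 and 5.85 with HRG at 6 h, against 6.26 and 5.99 in basal cells. The groups did not overlap at 24 h and overlapped at 6 h, and the basal arrays at 24 h differed from each other by 1.03. Both HRG arrays at 24 h lay below their own lower quartiles (5.89 and 5.96), so the size of the difference is taken against a row at the dim end of the array. Tnfsf4 fell with HRG at 24 h, with a fitted log2 difference of -1.41 ± 0.26 (adjusted p = 0.011), and was at -0.0007 ± 0.26 at 6 h. Without Basal_24h replicate 2 the 24 h difference was -0.89 (adjusted p = 0.053), without Basal_24h replicate 1 it was -1.92 (adjusted p = 0.00024), and the call was lost without either HRG_24h array as well. This row is dim, and Tnfsf4 was not among the genes tested when the dimmest 30% were dropped.

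Cd40, the receptor for CD40 ligand, was at 9.95 and 9.99 with HRG at 24 h, against 9.83 and 10.16 in basal cells, and at 11.01 and 10.73 with HRG at 6 h, against 11.68 and 11.49 in basal cells. The groups overlapped at 24 h and did not at 6 h, where basal cells were highest. Cd40 fell with HRG at 6 h by 0.71 ± 0.13 (1.64-fold lower, adjusted p = 0.026) and was at -0.03 ± 0.13 at 24 h (adjusted p = 0.98, 95% interval -0.31 to 0.26). Its 6 h value ran between -0.85 and -0.57 without single arrays, and the call was lost without HRG_6h replicate 2, Basal_6h replicate 1 or either HRG_24h array (adjusted p up to 0.28).

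Cd83, the maturation marker, was at 9.58 and 9.57 with HRG at 24 h, against 9.05 and 9.04 in basal cells, and at 9.74 and 9.71 with HRG at 6 h, against 10.54 and 10.29 in basal cells. The groups did not overlap. Cd83 rose with HRG at 24 h by 0.53 ± 0.10 (1.45-fold, adjusted p = 0.012) and fell at 6 h by 0.69 ± 0.10 (1.62-fold lower, adjusted p = 0.0083). Its values ran between 0.53 and 0.54 at 24 h and between -0.82 and -0.57 at 6 h without single arrays. The call was lost at 24 h without either HRG_24h array or Basal_24h replicate 2 (adjusted p up to 0.12) and at 6 h without either HRG_6h array or Basal_6h replicate 1 (adjusted p up to 0.10).

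**Figure D3:**
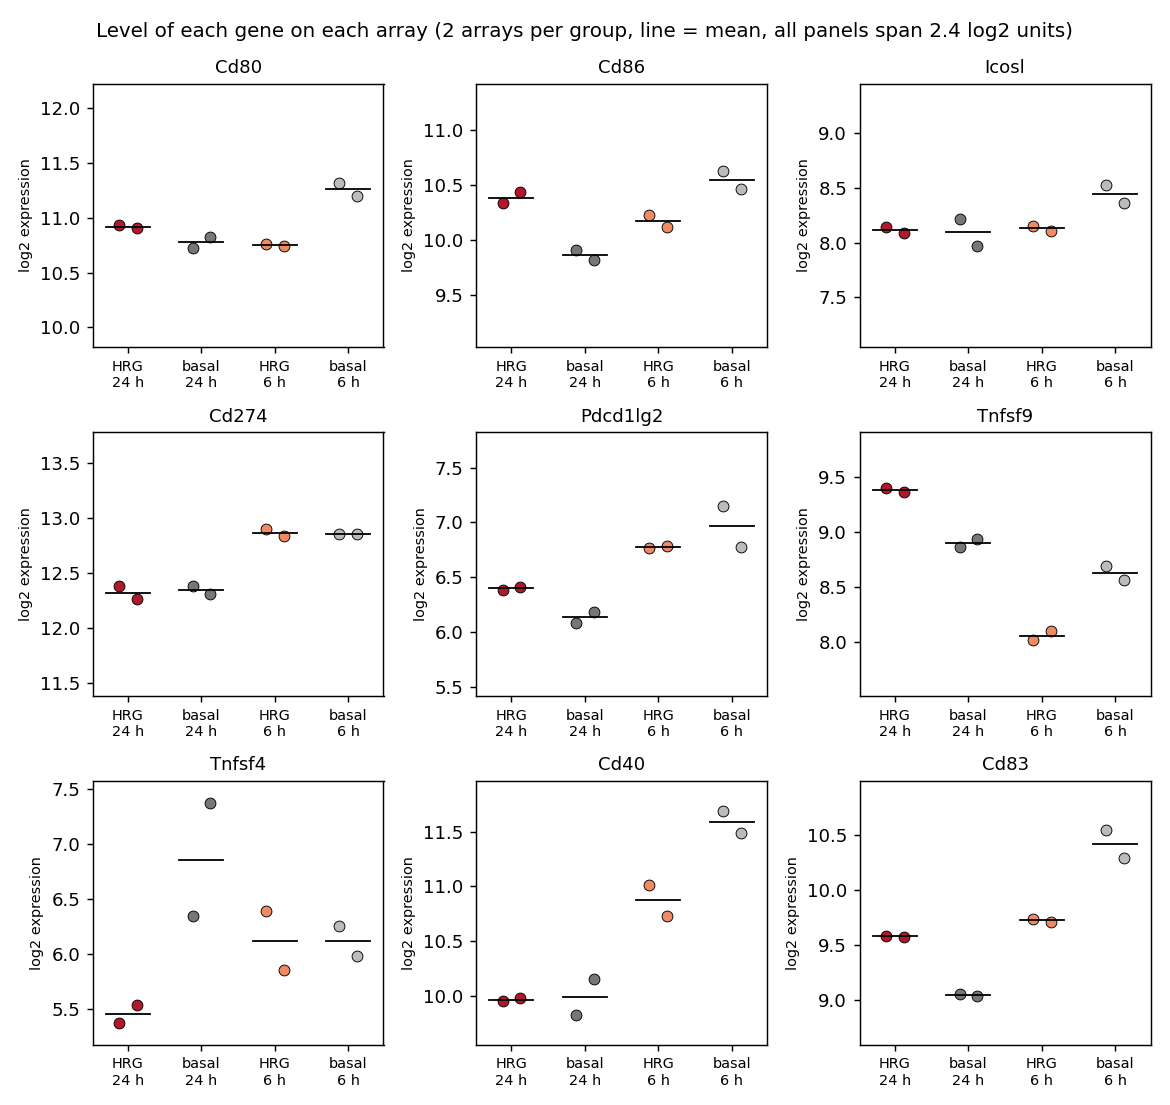
Log2 expression of the 9 genes on each of the 8 arrays, by group (points, 2 arrays per group; lines, group mean; every panel spans the same range of log2 units). Cd83 lies at 9.57 to 9.58 with HRG and 9.04 to 9.05 in basal cells at 24 h, and at 9.71 to 9.74 with HRG and 10.29 to 10.54 in basal cells at 6 h, while Cd274 separates by time alone.

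The test of the difference between the HRG effects at 24 h and at 6 h showed where the effects were not the same. For Cd83, Tnfsf9, Cd86 and Cd80 the HRG effect was higher at 24 h than at 6 h, by 1.23 ± 0.14 (adjusted p = 0.0037), 1.05 ± 0.13 (adjusted p = 0.0042), 0.89 ± 0.14 (adjusted p = 0.012) and 0.65 ± 0.13 (adjusted p = 0.035). These are 4 of 9 genes, where 1.47% of all genes were called and 1.02% had a higher effect at 24 h, and 0 of 9 had a lower effect (1 at an unadjusted p under 0.05, Tnfsf4), against 0.451% of all genes. Cd40 (0.69 ± 0.19, adjusted p = 0.11), Pdcd1lg2 (0.45 ± 0.17, adjusted p = 0.31), Icosl (0.33 ± 0.15, adjusted p = 0.46), Cd274 (-0.04 ± 0.13, adjusted p = 0.96) and Tnfsf4 (-1.41 ± 0.37, adjusted p = 0.11) did not pass. Cd83 and Tnfsf9 kept their call without each single array (adjusted p at most 0.028 and 0.036). The call of Cd86 was lost without HRG_6h replicate 2 or either HRG_24h array (adjusted p up to 0.068), and that of Cd80 was lost without any single array other than Basal_6h replicate 2, while Tnfsf4 passed without Basal_24h replicate 1 (-1.92, adjusted p = 0.0029) and Pdcd1lg2 without Basal_6h replicate 2 (0.64, adjusted p = 0.05). In the same test, 6 of 9 B cell, 4 of 10 dendritic cell, 4 of 8 mast cell and 1 of 9 T and NK cell markers had a higher effect at 24 h, and 0 of 10 macrophage markers passed (1 at an unadjusted p under 0.05).

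With culture time, 2 of the 9 genes fell in HRG-treated cells and 1 rose. Between 6 h and 24 h with HRG, Cd40 fell by 0.90 ± 0.13 (1.87-fold lower, adjusted p = 0.0014) and Cd274 by 0.55 ± 0.09 (adjusted p = 0.0038), and Tnfsf9 rose by 1.33 ± 0.09 (2.51-fold, adjusted p = 1.3e-05). These are 2 and 1 of 9 genes, where 7.28% of all genes were called (2.87% fell and 4.41% rose), and the median of the 9 genes was -0.15, against -0.02 over all genes. Cd83 (-0.15 ± 0.10, adjusted p = 0.52), Cd86 (0.21 ± 0.10, adjusted p = 0.29), Cd80 (0.16 ± 0.09, adjusted p = 0.40), Pdcd1lg2 (-0.37 ± 0.12, adjusted p = 0.09), Icosl (-0.02 ± 0.11, adjusted p = 0.97) and Tnfsf4 (-0.67 ± 0.26, adjusted p = 0.18) did not pass. The call of Cd274 was lost without HRG_6h replicate 1 or HRG_24h replicate 2 (adjusted p up to 0.053), and Cd40 and Tnfsf9 passed without each single array. Pdcd1lg2 passed without either Basal_6h array (adjusted p = 0.025) and Tnfsf4 without either Basal_24h array (adjusted p = 0.027).

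Most of the 9 transcripts fell with culture time in basal cells. Between 6 h and 24 h without HRG, Cd40 fell by 1.59 ± 0.13 (3.01-fold lower, adjusted p = 2.3e-05), Cd83 by 1.37 ± 0.10 (2.59-fold lower, adjusted p = 1.4e-05), Pdcd1lg2 by 0.83 ± 0.12 (adjusted p = 0.0011), Cd86 by 0.68 ± 0.10 (adjusted p = 0.0012), Cd274 by 0.51 ± 0.09 (adjusted p = 0.0042) and Cd80 by 0.48 ± 0.09 (adjusted p = 0.0062). These are 6 of 9 genes, where 9.28% of all genes were called and 5.48% fell, and 0 of 9 rose in limma (2 at an unadjusted p under 0.05), where 3.8% of all genes rose. Tnfsf4 (0.74 ± 0.26, adjusted p = 0.12), Tnfsf9 (0.28 ± 0.09, adjusted p = 0.10) and Icosl (-0.35 ± 0.11, adjusted p = 0.07) did not pass. The median of the 9 genes was -0.51, against 0.03 over all genes. Pdcd1lg2 on the basal arrays at 24 h (6.09 and 6.19) lay close to the lower quartiles of those arrays (6.00 and 5.92). The size of its fall is therefore taken against a row near the dim end of the array. The calls held without each single array, except that of Cd80 without Basal_24h replicate 1 (adjusted p = 0.054). Without that array, Tnfsf4 (1.26, adjusted p = 0.0024) and Icosl (-0.47, adjusted p = 0.043) passed. The change with time in HRG cells minus that in basal cells is the same quantity as the difference between the HRG effects above, so it passed for Cd83, Tnfsf9, Cd86 and Cd80 and not for Cd40 or Cd274. Beside these values, 0 of 9 B cell markers, 1 of 10 dendritic cell markers and 0 of 8 mast cell markers fell with time under HRG (1, 1 and 0 at an unadjusted p under 0.05), against 7, 6 and 4 in basal cells. In these lists 1, 3 and 2 rose under HRG, against 0, 1 and 0 in basal cells, where Clec9a rose (1.35 ± 0.13). Of 9 T and NK cell markers, 2 rose under HRG and 1 fell in basal cells. Of 10 macrophage markers, 3 rose under HRG, and 2 rose and 2 fell in basal cells. Over all genes, 2.87% fell and 4.41% rose under HRG.

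**Figure D4:**
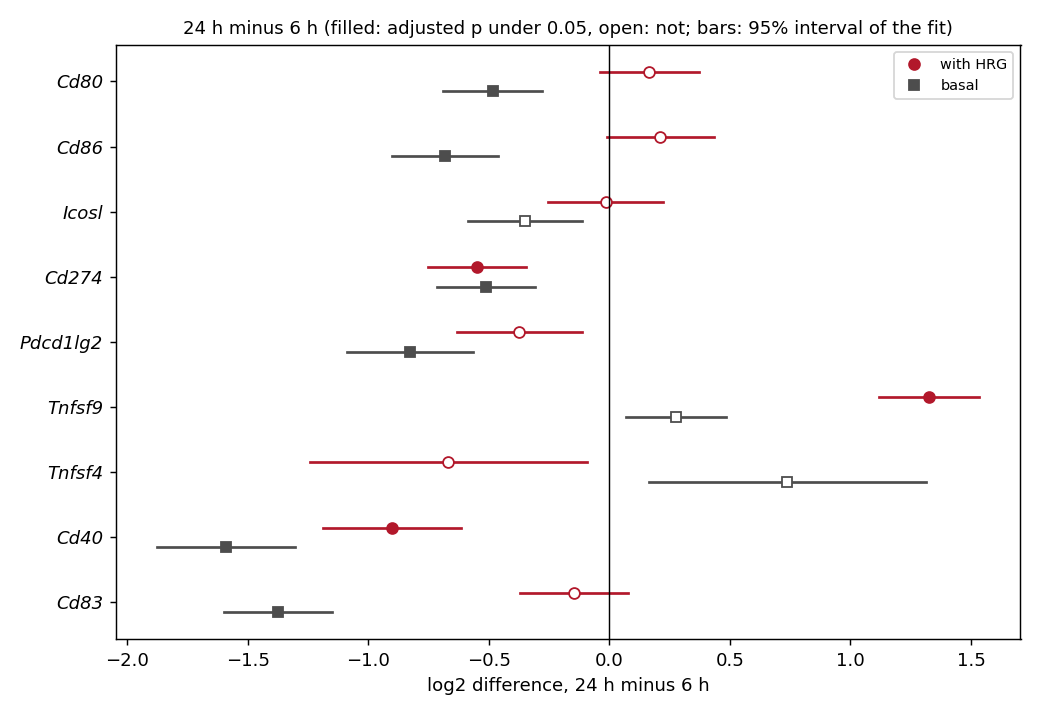
Log2 difference of 24 h minus 6 h (horizontal axis) for the 9 genes with HRG (red circles) and in basal cells (grey squares), with the 95% interval of the limma fit as a bar and filled symbols for an adjusted p under 0.05. Cd83 is at -0.15 with HRG and at -1.37 in basal cells, Tnfsf9 at 1.33 with HRG and at 0.28 in basal cells, and Cd274 at -0.55 with HRG and at -0.51 in basal cells.

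The receptors of these ligands are mostly made by T cells, and few of their rows passed. At 24 h with HRG, 1 of 8 rose and 0 fell in limma (1 at an unadjusted p under 0.05): Tnfrsf9, which encodes 4-1BB, the receptor for the Tnfsf9 product, was at 9.55 and 9.14 with HRG, against 8.79 and 8.41 in basal cells (0.74 ± 0.15, adjusted p = 0.016). So ligand and receptor of this pair were each higher with HRG at 24 h. At 6 h, Cd28, which encodes the receptor for CD80 and CD86, fell by 0.60 ± 0.11 (adjusted p = 0.027), being at 6.72 and 6.83 with HRG, against 7.25 and 7.50 in basal cells. The other 7 did not pass at 6 h: Tnfrsf4 (-0.34), Icos (-0.29), Ctla4 (-0.29), Pdcd1 (-0.24), Cd40lg (-0.13), Tnfrsf9 (-0.07) and Rgmb (0.13), which encodes a further partner of PD-L2. At 24 h the other 7 lay between -0.27 for Cd28 and 0.17 for Tnfrsf4. None of the 8 passed the test of the difference between times in limma (3 at an unadjusted p under 0.05). Of all genes, 2.43% rose with HRG at 24 h and 0.818% fell at 6 h.

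Of 20 other costimulatory and checkpoint genes of antigen-presenting cells, 19 were measured. The shares of all genes that rose were 2.43% with HRG at 24 h, 4.41% with time under HRG and 3.8% with time in basal cells. The shares that fell were 0.818% with HRG at 6 h, 2.87% with time under HRG and 5.48% with time in basal cells. At 24 h with HRG, 4 of 19 rose and 0 fell in limma (1 at an unadjusted p under 0.05). They were Tnfsf14, which encodes the costimulatory ligand LIGHT (1.05 ± 0.20), Tnfrsf14, which encodes its receptor HVEM (0.82 ± 0.12), Lgals9, which encodes galectin-9 (0.59 ± 0.09), and Vsir, which encodes the inhibitory protein VISTA (0.54 ± 0.10). Vsir was at 12.23 and 12.15 with HRG, against 11.64 and 11.66 in basal cells. At 6 h, 1 of 19 fell, Cd200 (-0.70 ± 0.14), which encodes a ligand that restrains myeloid cells, and 0 rose in limma (3 at an unadjusted p under 0.05). With time under HRG, 4 of 19 rose, among them Tnfsf14 (1.88 ± 0.20) and Vsir (0.97 ± 0.10), and 2 fell, Cd244a (-1.11 ± 0.13) and Havcr2, which encodes TIM-3 (-0.84 ± 0.22). With time in basal cells, Tnfsf14 (0.87 ± 0.20) and Vsir (0.83 ± 0.10) rose and Cd200 fell (-1.12 ± 0.14). None of the 19 passed the test of the difference between times in limma (5 at an unadjusted p under 0.05).

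Of 6 genes that act on these ligands at the cell surface or on peptide loading, Cd74 rose with HRG at 24 h (1.00 ± 0.12). It encodes the invariant chain of MHC class II. At that time 2.43% of all genes rose. None of the 6 passed at 6 h in limma (1 at an unadjusted p under 0.05). Cd74 was the member of this group that passed the difference between times (0.99 ± 0.16). With time under HRG, 2 of the 6 rose, among them Cmtm6, which stabilises PD-L1 (0.45 ± 0.10), where 4.41% of all genes rose. With time in basal cells, Marchf1, a ubiquitin ligase that removes CD86 from the surface, rose by 0.60 ± 0.11, Cmtm6 rose by 0.44 ± 0.10, and Cd74 fell by 1.05 ± 0.12.

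Among 18 genes of CD40 and NF-kappaB signalling, Bcl3 (0.42 ± 0.10), a nuclear cofactor of NF-kappaB, and the adhesion molecule Icam1 (0.45 ± 0.09) rose with HRG at 24 h and 0 fell in limma (0 at an unadjusted p under 0.05). At 6 h, Traf1, an adaptor of CD40 and 4-1BB, fell by 0.66 ± 0.11, and 0 rose (0 at an unadjusted p under 0.05), with a median of -0.14. With time under HRG, 0 of 18 fell in limma (1 at an unadjusted p under 0.05) and Icam1 rose (0.44 ± 0.09). With time in basal cells, 7 of 18 fell, led by Traf1 (-0.65 ± 0.11), Nfkbid (-0.52 ± 0.11), Nfkbiz (-0.50 ± 0.11) and the subunit Rel (-0.44 ± 0.09). Icam1 passed the difference between times (0.58 ± 0.13). Of all genes, 2.43% rose with HRG at 24 h, 0.818% fell at 6 h and 5.48% fell with time in basal cells.

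In the list of interferon-gamma and related cytokine signalling, which is known to induce PD-L1, PD-L2 and CD40, 14 genes were measured. Of all genes, 2.43% rose with HRG at 24 h, 2.87% fell with time under HRG and 5.48% fell with time in basal cells. The receptor chain Ifngr1 (0.41 ± 0.09) and the transcription factor Irf1 (0.41 ± 0.10) rose with HRG at 24 h, and no gene passed at 6 h in limma (4 at an unadjusted p under 0.05). Irf1 passed the difference between times (0.72 ± 0.14). With time under HRG, the chemokine Cxcl10 (-1.80 ± 0.13) and the kinase Jak2 (-0.55 ± 0.09) fell and Ifngr1 rose by 0.85 ± 0.09. With time in basal cells, Cxcl10 (-1.66 ± 0.13), Jak2 (-0.70 ± 0.09), Ciita (-0.56 ± 0.12) and Irf1 (-0.38 ± 0.10) fell.

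Among themselves, the 9 genes varied over the 8 arrays by between 0.56 log2 units for Icosl and 2.01 for Tnfsf4. As a description over 8 arrays that form 4 groups of 2, Cd83 followed Pdcd1lg2 (r = 0.93), Cd40 (r = 0.89) and Cd86 (r = 0.89), Cd40 followed Pdcd1lg2 (r = 0.91), and Icosl followed Cd80 (r = 0.81). Tnfsf9 ran opposite to Cd274 (r = -0.84), and Tnfsf4 opposite to Cd86 (r = -0.60). Among all named genes with a spread at or above the median, the pattern closest to Cd83 over the 8 arrays was that of Tspan13 (r = 0.99), then Sema7a (r = 0.98). Closest to Cd86 were Rab32 and Bcl2a1c (r = 0.98 each), to Cd80 Trp53bp2 (r = 0.97) and Rgs1 (r = 0.96), and to Icosl B3gnt2 and Gtdc1 (r = 0.95 each). Cd274 ran closest to Ch25h and Pcnx (r = 0.98 each), and Pdcd1lg2 to Prrg4 (r = 0.99) and Blnk (r = 0.98). Tnfsf9 ran closest to Arg2 and Dguok (r = 0.98 each), Tnfsf4 to Lancl3 and Trim16 (r = 0.97 each), and Cd40 to Rae1 and Ppp3cc (r = 0.99 each).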

How the data were processed

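Each array received labelled cDNA made from 250 ng of total RNA, per the labels' protocols. The authors deposited log2 values; Affymetrix Expression Console, RMA and limma are named, per the submitters' processing notes. Tool versions and genome build: not given in the sources used here. RMA corrects background, quantile-normalizes and summarises probes, which compresses the differences of dim rows.

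Of 28853 rows, 21789 had 1 symbol in the platform annotation, and 1621 rows with several and 5443 with none were left out. For the 999 genes with several rows, Cd80 among the 9 described, the brightest row on average was kept, giving 19938 genes. Groups were taken from sample titles.

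A means model of the 4 groups was fitted to the 8 arrays together in R 4.3.3 with limma 3.58.1 (lmFit, contrasts.fit, eBayes; 4 residual and 7.81 prior degrees of freedom) for 5 comparisons. Tests were two-sided, Benjamini-Hochberg adjustment ran over the 19938 genes, and the threshold was 0.05. The code of the fit was checked on simulated data with independent noise. That check does not show how reliably differences of the sizes given here are called. The members, lists, motifs and tests were chosen with earlier results of these data known. All 9 members are named; of other lists, at most the 4 largest passing genes per comparison, and all receptors. Likeness is the highest Pearson correlation over 8 arrays, 2 genes per member. Some listed genes were not analysed here. Alternatives were renewed quantile normalization, median centring, a robust eBayes with trend, a block for the replicate number, dropping the dimmest 30% of genes, averaging rows, testing every row, fitting only the arrays compared, a minimum fold of 1.2, and leaving out each array. A block with the replicate numbers of Basal_24h crossed was added after seeing the correlations of the replicates.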

Additional observations from a re-analysis of the deposited data

Results flagged for a closer look

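For 4 of the 9 genes, the HRG effect at 24 h differed from that at 6 h by the interaction term of the limma fit: Cd83 (1.23), Tnfsf9 (1.05), Cd86 (0.89) and Cd80 (0.65), all as the 24 h effect minus the 6 h effect on the log2 scale. The same test passed for marker genes of other cells, namely the B cell markers Cd79a (1.2), Ms4a1 (1.17), Fcer2a (1.17) and Ebf1 (1.16), the T cell marker Cd3g (1.48), the dendritic cell markers Ccl22 (1.14), Fscn1 (0.86), Dpp4 (0.84) and Ccr7 (0.73), and the mast cell markers Cpa3 (1.22), Gata2 (0.94), Ms4a2 (0.93) and Hdc (0.88). It also passed for Cd74 (0.99), Irf1 (0.72) and Icam1 (0.58). Of all genes, 1.02% had a higher effect at 24 h by this test. Of the 10 dendritic cell markers, 7 had a difference above 0, and Zbtb46 (-0.05), Clec9a (-0.08) and Xcr1 (-0.27) lay below 0 without passing. The part of other cell types in the difference for the 9 genes was not tested.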

How the results depend on the processing

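Of 796 values of the 9 genes under the alternatives, 718 kept their side of the threshold, 59 lost a call and 19 gained one. Among them 0 changed sign with a call and 14 changed sign with no call. These counts include the block with the Basal_24h numbers crossed, described below, which was chosen after seeing the correlations of the replicates. The number of the 9 genes called at 24 h (4) was 0 with a minimum fold of 1.2 and ran from 0 to 4 without single arrays. At 6 h (4) it was 2 with every row tested and 0 with a minimum fold of 1.2, and ran from 0 to 4 without single arrays. For the difference of the effects (4) it was 2 with a minimum fold of 1.2 and ran from 2 to 5. For time with HRG (3) it ran from 2 to 4 and was 5 with only the arrays compared, and in basal cells (6) it ran from 6 to 7. The causes were not tested beyond what each alternative changes, namely the number of rows tested, the fold asked for and the arrays kept.

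Over all genes, calls at 24 h (694) were 179 with the minimum fold and 182 to 781 without single arrays. At 6 h (249) they were 492 with trend and robust, 134 with every row, 155 with only the arrays compared, 25 with the minimum fold and 21 to 287 without single arrays. For the difference (294) they were 547 with trend and robust, 168 with every row, 57 with the minimum fold and 56 to 404 without single arrays. For time they were 332 with the minimum fold and 529 to 1680 without single arrays with HRG (1452), and 527 and 1124 to 1817 in basal cells (1851). The replicate block left the calls among the 9 genes at 4 (24 h), 4 (6 h), 4 (difference), 3 and 6 (time with HRG and in basal cells), and gave 725, 242, 362, 1452 and 1860 calls over all genes. Deviations of same-numbered arrays correlated at 0.17 to 0.36 among HRG_24h, HRG_6h and Basal_6h and at -0.31 to -0.16 between each of these and Basal_24h. The lower quartile was lower in replicate 1 than in replicate 2 for HRG_24h (5.89 and 5.96), HRG_6h (5.94 and 5.98) and Basal_6h (5.85 and 5.99). It was higher in replicate 1 for Basal_24h (6.00 and 5.92). Whether the numbers as labelled pair the groups was not tested. A block with the Basal_24h numbers crossed, chosen after seeing these correlations, called 4, 4, 6, 4 and 8 of the 9 genes and 1083, 510, 604, 2337 and 2744 of all genes in the same order.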
